A study of Mus musculus with 4 samples.

Results

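Secreted antagonists of bone morphogenetic proteins (BMPs) and activins were examined in a mouse chondrogenic cell line after knockdown of Chadl. The members were the 9 genes Fst, Fstl1, Fstl3, Chrd, Chrdl1, Twsg1, Nog, Grem1 and Bambi, taken as every array probe set that carried one of these symbols and no other. They were read by 17 of 45037 probe sets, or 9 of 17097 genes. Of these, 8 are secreted, while Bambi encodes a transmembrane protein that blocks signalling at the receptors. ATDC5 cells were transfected with 30 nM of an RNA duplex against Chadl (knockdown, 2 arrays) or with a scrambled duplex (control, 2 arrays). In both groups the medium was replaced with differentiation medium after 16 h and then renewed every 2 days, and total RNA was taken at 5 days. Chadl encodes chondroadherin-like, a leucine-rich repeat protein of cartilage. The knockdown rests on 1 duplex sequence in 1 cell line. The titles call the arrays of each group biological replicates 1 and 2, and nothing further says how the cultures were kept apart, so the p-values cover only the variation among these 4 samples.

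BMPs and activins are secreted ligands that bring together type I and type II serine/threonine kinase receptors, which then phosphorylate Smad proteins. Extracellular antagonists bind the ligands and keep them from their receptors, and several of them are themselves induced by the signal they limit. In cartilage, BMP signalling drives chondrocyte commitment and maturation, and noggin and related antagonists are needed for normal joints and growth plates.

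Only 1 sequence lowered Chadl effectively, per the labels, and it is given there with 25 nucleotides, although the duplexes are called 27-mers. It is shown because every difference below is a difference between cells given this duplex and cells given the scrambled one.
Chadl duplex: acaagguagagaaacaaagagacca

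Chadl itself read 4.29 and 4.64 on the log2 scale in the knockdown arrays, against 4.91 and 4.84 in the controls. It was 1.32-fold lower, a log2 difference of -0.41 (SE 0.12, unadjusted p = 0.0158, adjusted p = 0.728, limma). Relative to the control mean it differed by -0.58 in knockdown 1 and by -0.23 in knockdown 2. Its probe set lay at the 47.1th percentile of all genes, below their median signal. The knockdown arrays were unequally far from the controls: the SD over genes of the log2 difference from control 1 was 0.20 for knockdown 1, 0.13 for knockdown 2 and 0.10 for control 2. Over all genes 0 passed (limma, Benjamini-Hochberg adjusted p of 0.05), while an unadjusted p of 0.05 was reached by 710 genes with higher and 431 with lower signal in knockdown. Of 9 chondrocyte markers, 5 lay at or above the median signal of all genes, Col2a1 and Sox9 among them. Their summed linear signal was 1487 in knockdown 1 and 1890 in knockdown 2, against 1687 and 1743 in the controls. Of the 9, 1 lay above and 1 below both controls in both knockdown arrays, where 21.2% and 17.1% of all genes did. In knockdown 1, Col2a1 differed from the control mean by -0.82, Matn1 by -0.77, Col9a1 by -0.68 and Hapln1 by -0.62. In knockdown 2 the same genes differed by 0.12, 0.05, 0.17 and -0.20. Col11a1, the brightest of the 9, was higher in both arrays (0.10 in knockdown 1 and 0.20 in knockdown 2). In the same order, Sox9 differed by 0.01 and -0.01, Acan by -0.01 and -0.01, Comp by -0.05 and 0.13, and Matn3 by -0.09 and -0.03. All markers of skeletal muscle, endothelium and blood lay below the median signal of all genes, and of 4 adipocyte markers 1 (Pparg) lay above it. All 4 measured osteoblast markers (Ibsp, Bglap, Sp7 and Dmp1) lay below both controls in both knockdown arrays, where 17.1% of all genes did. In this order they differed from the control mean by -3.13, -1.13, -0.81 and -1.14 in knockdown 1. In knockdown 2 they differed by -1.14, -0.03, -0.11 and -0.26. The summed linear signal of these 4 was 384 to 959 in knockdown and 1598 to 1620 in control. Ibsp weighs most in the control sums, and it read 7.02 and 9.01 in knockdown, against 10.15 and 10.15 in control. The part of either marker list in the results below was not tested.

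Among the antagonists, Fst, Fstl1 and Twsg1 lay above both controls in both knockdown arrays, and Bambi lay below both controls in both. These were 3 of 9 higher and 1 of 9 lower without overlap, where 21.2% and 17.1% of all genes were. In RNA from whole cultures, fewer cells that express a gene and less of its RNA per cell cannot be told apart. None of the 9 passed an adjusted p of 0.05, as 0% of all genes did. At an unadjusted p of 0.05 in limma there were 2 higher (Fst and Fstl1; 4.15% of all genes) and 0 lower (2.52%). The median log2 difference was 0.09 over the 9 antagonists and 0.01 over all genes. In knockdown 1 every one of the 9 was farther from the control mean than in knockdown 2, as were 58.5% of all genes.

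**Figure D1:**
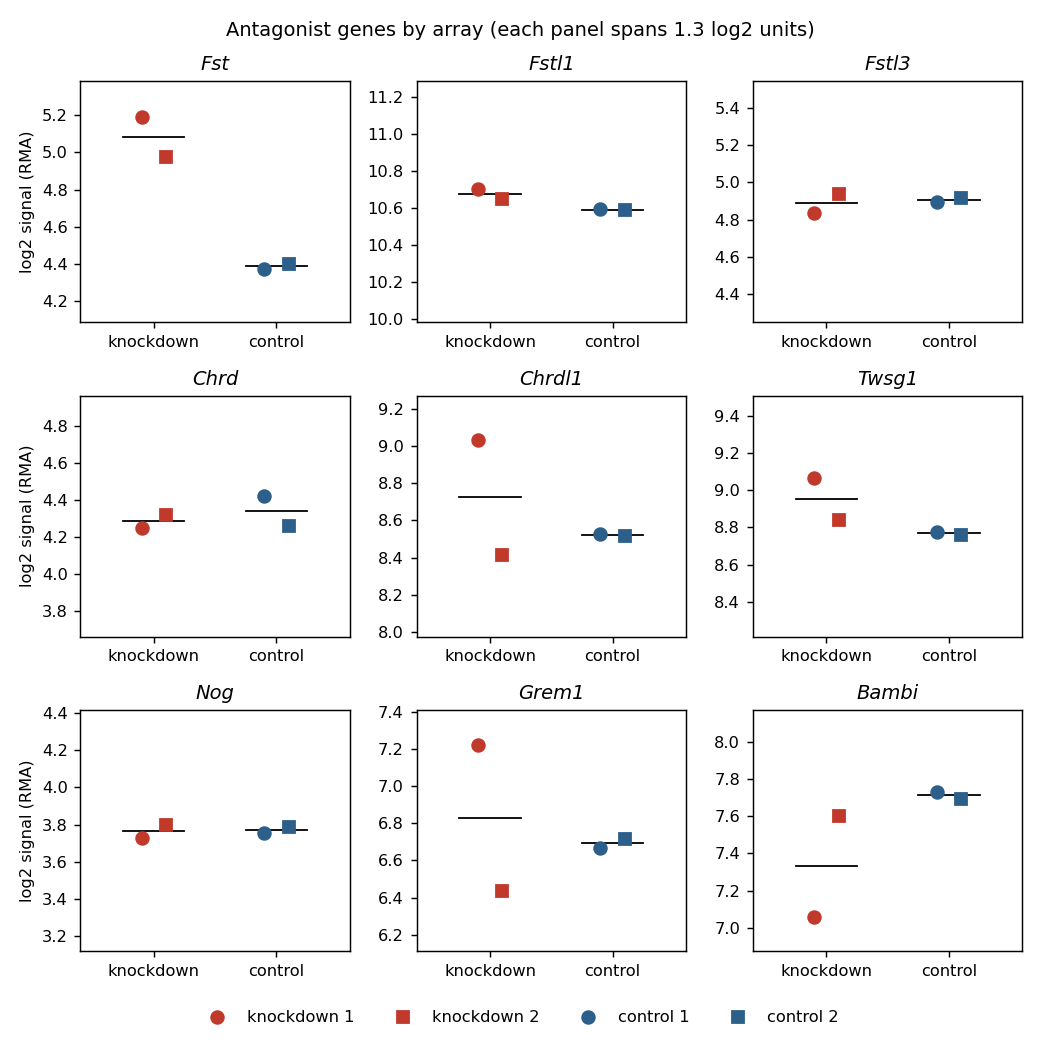
Log2 signal of the 9 antagonist genes, each by its brightest probe set, with knockdown arrays (red) left of control arrays (blue). Circles are replicate 1, squares are replicate 2, bars are group means and each panel spans the same height. Fst is separated from its controls in both arrays, while Chrdl1 and Grem1 have the knockdown arrays on either side of the controls.

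Follistatin (Fst), which binds activins almost irreversibly, had the widest range of the 9. It read 5.19 and 4.98 in the knockdown arrays, against 4.37 and 4.40 in the controls. Both knockdown arrays were high, and the gap to the controls was larger than the spread within either group. The signal was 1.62-fold higher, a log2 difference of 0.70 (SE 0.10, 95% confidence interval 0.46 to 0.94), with an unadjusted p of 0.000295 and an adjusted p of 0.451 in limma. Knockdown 1 lay 1.75-fold and knockdown 2 lay 1.51-fold above the control mean. In knockdown 1, 0.714% of all genes lay at least as far from the control mean as Fst, and in knockdown 2, 0.175% did. The probe set used for Fst lay at the 48.3th percentile of all genes, just below their median signal, and at the 61.2th of all probe sets. The second probe set of Fst (1421365_PM_at) was dim, at the 15.6th percentile of all probe sets. It read 3.55 and 3.32 in knockdown and 3.31 and 3.27 in control, so that most of its difference of 0.14 (SE 0.09) lay in knockdown 1. With the mean of both probe sets the difference of Fst was 0.42, 1.66 times smaller.

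Both other follistatin-related genes differed little between the groups. Follistatin-like 1 (Fstl1), a secreted glycoprotein with a follistatin-type domain, was bright, at the 98.7th percentile of all genes. It read 10.71 and 10.65 in the knockdown arrays, against 10.60 and 10.59 in the controls, a log2 difference of 0.09 (SE 0.04, unadjusted p = 0.0464, adjusted p = 0.744, limma). Its second probe set had the same order, with 10.45 and 10.39 in knockdown and 10.29 and 10.34 in control. The groups did not overlap on either probe set, and the size was 1.06-fold and 1.08-fold. Fstl3, a further activin-binding follistatin relative, read 4.84 and 4.94 in knockdown and 4.89 and 4.92 in control. Its knockdown arrays lay on either side of the controls, and the difference of -0.02 had a 95% confidence interval of -0.22 to 0.18.

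The chordin family gave no common direction. Chordin (Chrd), which holds BMPs in a complex, read 4.25 and 4.32 in the knockdown arrays, against 4.42 and 4.26 in the controls. The groups overlapped, and the difference of -0.06 had a 95% confidence interval of -0.27 to 0.16. Twisted gastrulation (Twsg1), which binds chordin and BMPs and can either strengthen or relieve the block, read 9.07 and 8.84 in knockdown, against 8.78 and 8.76 in control. Both knockdown arrays were above both controls, with a log2 difference of 0.19 (SE 0.08), or 1.14-fold (unadjusted p = 0.0574, adjusted p = 0.748, limma). Its 4 probe sets were all higher on average, but the groups of the 3 dimmer ones overlapped. Of these, 1421832_PM_at differed by 0.03, 1426179_PM_a_at by 0.12 and 1426073_PM_at by 0.03. With the mean of all 4, the difference of Twsg1 was 0.09, 2.02 times smaller.

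Chordin-like 1 (Chrdl1), a chordin relative that binds BMP4, was split both between the knockdown arrays and between its probe sets. On the brightest probe set it read 9.03 and 8.42 in the knockdown arrays, against 8.53 and 8.52 in the controls. Knockdown 1 lay 1.43-fold above the control mean and knockdown 2 lay 1.08-fold below it, so the mean difference of 0.20 (SE 0.18) describes neither array. The second brightest, 1421295_PM_at, had the same pattern, with 6.64 and 5.83 in knockdown and 6.03 and 6.05 in control. Both dimmer probe sets were instead lower in both knockdown arrays. Probe set 1456722_PM_at read 5.83 and 6.03 in knockdown, against 6.25 and 6.10 in control. Probe set 1424945_PM_at read 4.21 and 4.23 in knockdown, against 4.59 and 4.53 in control, a log2 difference of -0.34 (SE 0.08, unadjusted p = 0.00366, adjusted p = 0.495 over all probe sets, limma). For Chrdl1, 2 probe sets had a higher and 2 a lower knockdown mean. Which part of the transcript each reads was not analysed here.

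Of the antagonists with a cystine knot, noggin was dim and level and gremlin differed between the knockdown arrays. Noggin (Nog), which covers the receptor-binding surfaces of BMPs, read 3.73 and 3.80 in the knockdown arrays, against 3.75 and 3.79 in the controls. It lay at the 22.8th percentile of all genes, where array signal can understate a change, and its difference of -0.01 had a 95% confidence interval of -0.18 to 0.17. Gremlin 1 (Grem1), which binds BMP2 and BMP4, read 7.22 and 6.44 in knockdown, against 6.67 and 6.71 in control. Knockdown 1 lay 1.44-fold above and knockdown 2 was 1.19-fold below the mean of the controls, and the mean difference of 0.14 (SE 0.23) was smaller than its error. Grem1 and Chrdl1 were thus 2 of 9 antagonists above the control mean in knockdown 1 and below it in knockdown 2, as were 17.4% of all genes. In knockdown 1, 2.13% of all genes lay at least as far from the control mean as Grem1, and in knockdown 2, 4.19% did.

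Bambi, a transmembrane pseudoreceptor that lacks the kinase domain of type I receptors and is itself induced by BMPs, was the one antagonist below both controls in both knockdown arrays. It read 7.06 and 7.60 in knockdown, against 7.73 and 7.69 in control. Relative to the control mean, the signal was 1.57-fold lower in knockdown 1 and 1.08-fold lower in knockdown 2. The log2 difference was -0.38 (SE 0.17, 95% confidence interval -0.78 to 0.02, unadjusted p = 0.0575, adjusted p = 0.748, limma). Bambi was read by 1 probe set.

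**Figure D2:**
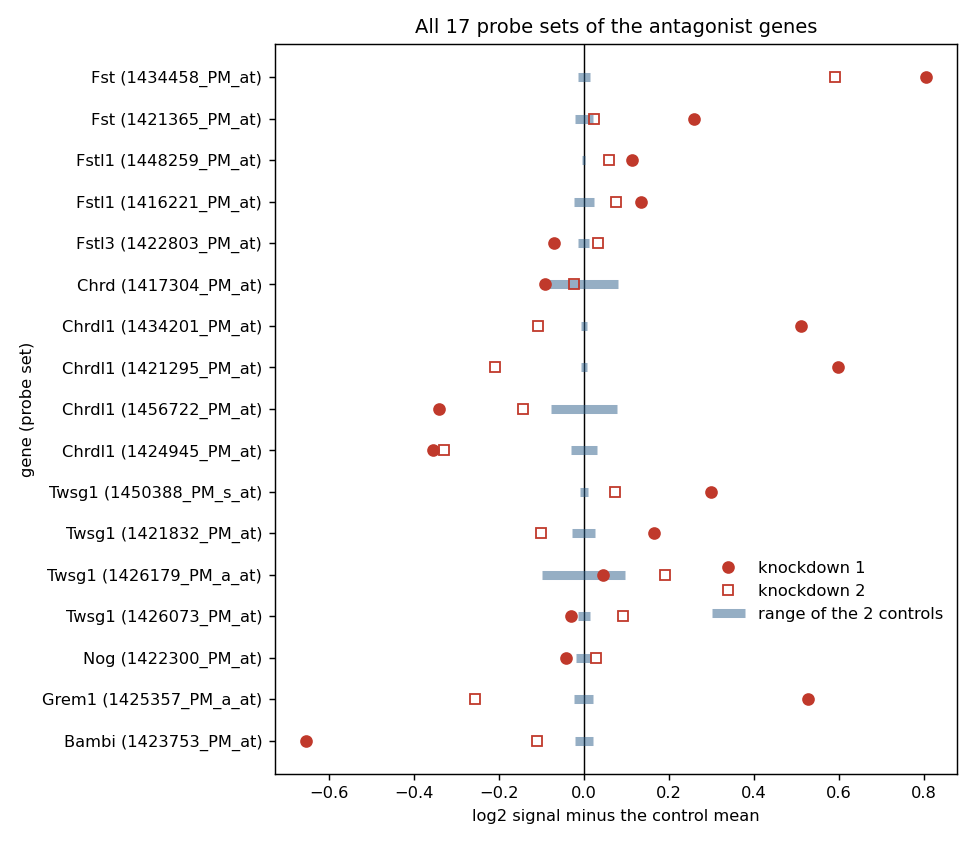
Log2 signal minus the control mean for all 17 probe sets of the antagonist genes, with knockdown 1 as filled circles, knockdown 2 as open squares and the range of both controls as a blue bar. The probe sets of Chrdl1 fall into a pair split between the knockdown arrays and a pair below the controls in both.

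Over the 17 probe sets, 5 lay above both controls in both knockdown arrays (18.6% of all probe sets) and 3 lay below both (19.9%). None passed over all probe sets, where 0.00222% did. At an unadjusted p of 0.05 in limma 4 were higher (3.42% of all probe sets) and 2 were lower (3.83%).

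The calls changed with the knockdown array that was left out. Without knockdown 1, in a fit that takes its single knockdown array to have the spread of the controls, Fst alone of the 9 passed (log2 difference 0.59, adjusted p = 0.00308, limma), where 1.91% of all genes were higher and 1.37% lower. Over all 12 alternatives the adjusted p of Fst ranged from 2.64e-05 to 1, and with all 4 arrays its lowest was 0.338. Without knockdown 2, on the same footing, 6 of 9 passed, where 8.94% of all genes were higher and 6.18% lower. Of these, Fst (log2 difference 0.81), Grem1 (0.53), Chrdl1 (0.51), Twsg1 (0.30) and Fstl1 (0.11) were higher, and Bambi (-0.65) was lower. Nog, Chrd and Fstl3 passed in neither fit, with differences between -0.09 and 0.03. A fit of 1 knockdown array compares that array with the controls and says nothing of the spread between knockdowns.

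**Figure D3:**
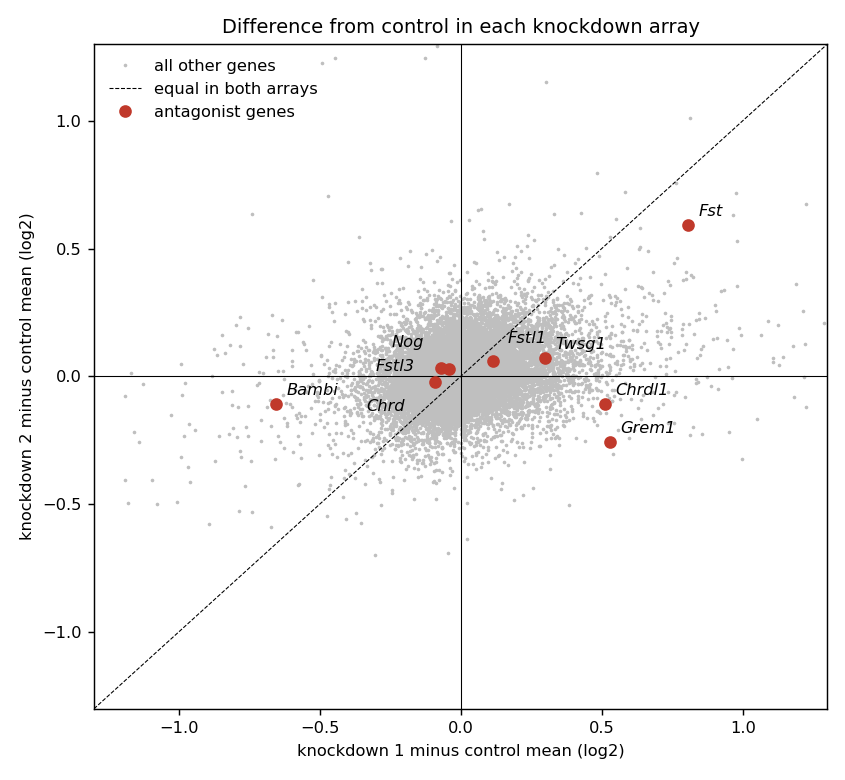
Difference of each gene from the control mean in knockdown 1 (x axis) and knockdown 2 (y axis), in log2 units, with the antagonists in red, all other genes in grey and a dashed line of equal difference. Fst lies far from the centre on both axes, Chrdl1 and Grem1 lie to the lower right and Bambi to the left, and 31 genes fall outside the axes.

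Promoter sequence was available for 5 of the 9 genes in the RefSeq table of GRCm38.p6. The 250 bases before the start site are shown for 3 genes that were higher in knockdown 1, Fstl1 and Twsg1, which were also higher in knockdown 2, and Grem1, which was lower there. Capitals mark CAGAC on either strand, a core of elements bound by Smad3 and Smad4, and GGCGCC, a GC-rich core bound by the BMP Smads.
Fstl1, chr16:37776805-37777054, plus strand: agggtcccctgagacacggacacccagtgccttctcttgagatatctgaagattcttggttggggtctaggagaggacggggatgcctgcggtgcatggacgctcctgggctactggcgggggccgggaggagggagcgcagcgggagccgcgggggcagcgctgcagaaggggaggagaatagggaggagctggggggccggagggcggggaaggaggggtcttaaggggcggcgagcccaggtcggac
Twsg1, chr17:65951188-65951437, minus strand: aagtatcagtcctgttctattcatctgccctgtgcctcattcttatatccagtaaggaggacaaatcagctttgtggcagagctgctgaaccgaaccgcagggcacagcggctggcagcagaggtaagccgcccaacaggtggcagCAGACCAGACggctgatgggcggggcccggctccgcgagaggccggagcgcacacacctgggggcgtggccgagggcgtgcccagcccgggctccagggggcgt
Grem1, chr2:113758649-113758898, minus strand: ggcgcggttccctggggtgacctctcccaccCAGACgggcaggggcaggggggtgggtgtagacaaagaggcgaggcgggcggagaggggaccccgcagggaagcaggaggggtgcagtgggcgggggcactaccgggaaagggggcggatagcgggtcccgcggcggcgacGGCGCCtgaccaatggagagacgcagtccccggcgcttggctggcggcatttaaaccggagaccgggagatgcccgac
The Fstl1 window held neither motif. The Twsg1 window held CAGAC at 2 adjoining positions, 104 and 99 bases before the start site, and the Grem1 window held it at 219 bases before the start and GGCGCC at 78 bases before it. Of 32851 windows of the same length in the table, 42.2% held CAGAC and 9.6% held GGCGCC, and 11.7% held CAGAC more than once. The windows were 68.0% (Fstl1), 64.4% (Twsg1) and 72.0% (Grem1) G or C, against a median of 52.4% over all windows. A match describes the letters and is not a binding site.

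Among other extracellular antagonists of these ligands, Bmper had the clearest difference. BMPER is a secreted BMP-binding protein of the chordin type, which can block or assist BMP signals. It read 7.71 and 8.29 in the knockdown arrays, against 8.79 and 8.78 in the controls. Both knockdown arrays were low, 1.73-fold lower on average (log2 difference -0.79, SE 0.17, unadjusted p = 0.00300, adjusted p = 0.615, limma). Of 19 other antagonists measured, 3 lay above both controls (21.2% of all genes), 3 lay below (17.1%), and 1 (Bmper) was lower at an unadjusted p of 0.05 (2.52%). Their median difference was 0.01.

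Enzymes that release BMPs from chordin, together with procollagen C-proteinase enhancers, were measured for 5 genes, with a median of 0.02. Of these, 2 lay above both controls (21.2% of all genes), 0 below, and 0 were under an unadjusted p of 0.05. The procollagen C-proteinase enhancer gene Pcolce2 read 6.64 and 7.82 in knockdown, against 7.84 and 7.77 in control, so that only knockdown 1 was low. Its relative Pcolce read 10.67 and 10.60 in knockdown and 10.58 and 10.58 in control. The enzyme genes themselves, Bmp1, Tll1 and Tll2, had log2 differences of 0.07, 0.02 and 0.01.

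Among ligands, 1 of 8 BMP and GDF genes lay above both controls in both knockdown arrays (21.2% of all genes), and the same gene was higher with an unadjusted p under 0.05 (4.15%). It was the joint-forming ligand gene Gdf5, and 0 lay below both controls. It read 3.88 and 3.87 in knockdown, against 3.52 and 3.63 in control (log2 difference 0.30, SE 0.08, adjusted p = 0.694, limma), and was dim, at the 21.3th percentile of all genes. Of 6 activin, inhibin and TGF-beta type ligand genes, 2 (Inhba and Tgfb3) lay above both controls (21.2% of all genes), 0 lay below (17.1%), and 0 were under that p. Inhba, the subunit of activin A that follistatin captures, read 6.97 and 6.47 in knockdown, against 6.41 and 6.47 in control. Most of its difference thus lay in knockdown 1. Its 2 probe sets differed in sign. The TGF-beta ligand gene Tgfb3, named after its values were seen, read 6.19 and 5.83 in knockdown, against 5.79 and 5.82 in control. For Tgfb3, too, most of the difference lay in knockdown 1. Tgfb2 read 7.01 and 7.39 in knockdown, against 7.43 and 7.30 in control.

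Of 15 receptor and co-receptor genes, 4 lay above both controls (21.2% of all genes), 2 lay below (17.1%) and 1 was higher with an unadjusted p under 0.05 (4.15%), with a median of 0.02. The type I activin receptor gene Acvr1b read 5.40 and 5.29 in knockdown, against 5.10 and 5.09 in control (log2 difference 0.25, SE 0.09, adjusted p = 0.728, limma), and its 2 probe sets also differed in sign. Of 8 genes of Smads and their ubiquitin ligases, 2 lay above both controls (21.2% of all genes), 1 lay below (17.1%) and 0 were under that p, also with a median of 0.02. Smad9, 1 of the 2 above, is counted again among the BMP target genes below. Smad4, the shared partner of all receptor-activated Smads, read 8.70 and 8.55 in knockdown, against 8.56 and 8.58 in control. Smurf2, a ligase that marks Smads and receptors for breakdown, read 9.04 and 9.44 in knockdown, against 9.28 and 9.25 in control.

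Genes that BMP signals are known to induce showed no shared direction. Of 13 measured, without the antagonists that also belong there, 3 lay above both controls (21.2% of all genes), 4 lay below (17.1%), and 0 were under an unadjusted p of 0.05. The list's median was 0.05 over both arrays, 0.09 in knockdown 1 alone and -0.04 in knockdown 2 alone. Id1, an inhibitor of differentiation factors and a direct BMP target, read 8.09 and 8.10 in knockdown, against 8.19 and 8.21 in control, a log2 difference of -0.10 (SE 0.06). Id3, of the same family, read 9.68 and 9.49 in knockdown, against 9.69 and 9.70 in control, a difference of -0.11 (SE 0.07). Both knockdown arrays were below both controls for Id1 and Id3, as for Bambi. The others on the list without overlap, named after their values were seen, went both ways. Id2 (log2 difference -0.13) and Dlx5 (-0.20) were below, and Smad6 (0.22), Smad9 (0.12) and Hey1 (0.08) were above both controls. Of the 3 probe sets of Id2, 1 had a higher and 2 a lower knockdown mean. Id4, also named after its values were seen, did not share the direction of Id1, Id2 and Id3 in both arrays. It differed from the control mean by 0.61 in knockdown 1 and by -0.21 in knockdown 2.

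Of 6 TGF-beta and activin target genes measured, 3 lay above both controls (21.2% of all genes) and 0 below (17.1%), and 2 were higher with an unadjusted p under 0.05 (4.15%). Tgfbi, which encodes a TGF-beta-induced matrix adhesion protein, read 10.47 and 10.23 in knockdown, against 10.08 and 10.11 in control (log2 difference 0.25, SE 0.08, adjusted p = 0.728, limma). Ltbp2, of the latent TGF-beta binding protein family, read 5.04 and 4.53 in knockdown, against 4.28 and 4.42 in control (log2 difference 0.44, SE 0.17, adjusted p = 0.743, limma). The median of the 6 was 0.15, with 0.31 in knockdown 1 and 0.09 in knockdown 2. Listed genes that no probe set carried as its only symbol were not analysed here.

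**Figure D4:**
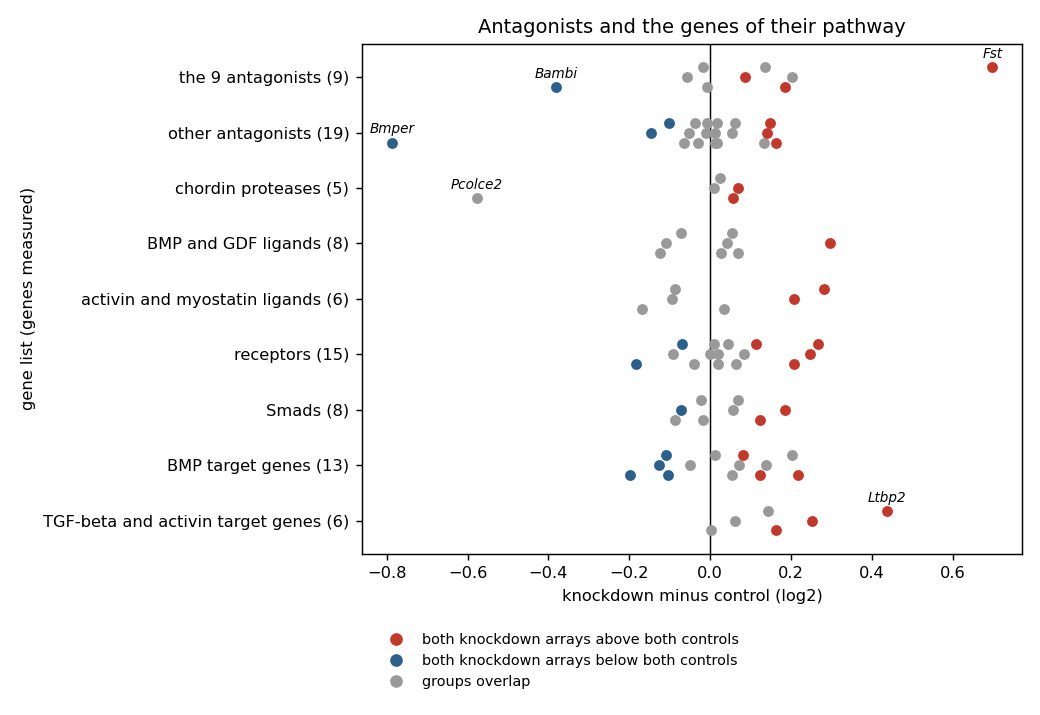
Knockdown minus control in log2 units for each measured gene of the antagonists and of the 8 pathway lists, with the number measured in brackets. Red genes have both knockdown arrays above both controls, blue genes have both below and grey genes overlap. None of them passed an adjusted p of 0.05.

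The 3 genes most like Fst over the 4 arrays, by Pearson r among the 1223 genes with a range of at least 0.41, were Cd34, Artn and Tcim. Cd34, a surface sialomucin, read 5.53 and 5.28 in knockdown, against 4.54 and 4.57 in control. Artn, which encodes a ligand of the GDNF family, read 6.67 and 6.53 in knockdown, against 6.15 and 6.18 in control. Tcim read 5.42 and 5.29 in knockdown, against 4.96 and 4.98 in control. Their r with Fst was over 0.99, as it was for 14 of the 1223, and with 4 arrays in 2 groups such values describe a shared order and little more.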

How the data were processed

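Expression was measured on 4 Affymetrix mouse arrays (2 knockdown, 2 control), grouped by sample titles. The deposited log2 signals per probe set come from RMA run by the authors, as the submitters' processing notes name it, in a version not given in the sources used here. RMA makes arrays alike in distribution and compresses dim changes. The log base was read from the values (2.17 to 12.72). Of 45141 probe sets, 104 array controls were left out. By the platform annotation, which can be old, 28898 carried 1 symbol, 551 several and 15692 none. Each of 17097 genes was represented by its probe set with the highest mean.

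Knockdown was compared with control in limma 3.58.1 (R 4.3.3, lmFit, eBayes with trend, 2 residual and 4.45 prior degrees of freedom), two-sided, Benjamini-Hochberg adjusted over all genes, with no filter. Probe sets were fitted likewise over all 45037. The limma step was tested on simulated data. Precision is limited by 2 arrays per group. The members, lists and tests were chosen with earlier results of these data known. Named genes were all members, up to 4 per pathway list with the smallest unadjusted p under 0.05 or else the 2 brightest, and the 3 genes most like the member of widest range. Alternatives were quantile normalization, centring, a filter at the 40th percentile, the mean of probe sets, a robust prior, a prior without trend, a block for the replicate number, each array left out and all probe sets.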

Additional observations from a re-analysis of the deposited data

How the results depend on the processing

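Of 107 values of the antagonists under the alternatives, 93 kept their direction and their side of the threshold, 7 kept the direction and passed (all without 1 knockdown array), and 7 turned in sign. With the mean of all probe sets Chrdl1 turned to -0.047, since 2 of its 4 probe sets have the opposite sign. Leaving out each array in turn, the log2 difference ranged from -0.071 to 0.034 for Fstl3, from -0.042 to 0.028 for Nog, from -0.138 to 0.024 for Chrd, from -0.11 to 0.51 for Chrdl1 and from -0.26 to 0.53 for Grem1. In the same fits the number of antagonists that passed ranged from 0 to 6, and of all genes from 0 to 2584 (561 without knockdown 1 and 2584 without knockdown 2). With each probe set fitted on its own, 1 passed, and it belonged to no antagonist. Fst, Fstl1, Bambi and Twsg1 kept their direction under every alternative run. Part of this, as of the 93 values above, was fixed in advance. The filter, the changed priors, the block and the fit of all probe sets leave the difference of the brightest probe set unchanged. Where the groups do not overlap, as for these genes, leaving out 1 array cannot turn the sign. The replicate number as a block gave 0 genes and 0 antagonists. No shared effect of the replicate number was seen (correlation over genes of the replicate differences -0.0041). With 2 pairs this cannot tell whether the cultures were paired. Nog lay below the 40th percentile filter, so it has no value there. Dim genes such as Nog and Chrd limit what a small difference can say.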
